A study of Mus musculus with 4 samples.

Results

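Pericentral sinusoidal endothelial cells line the part of the liver sinusoid next to the central vein. They were chosen here from measured counts of unique molecular identifiers (UMIs): a sinusoidal endothelial cell counted as pericentral when it held at least 3 UMIs of the 4 marker genes Wnt2, Kit, Cdh13 and Rspo3 together and at least 2 times as many of these as of the 4 periportal markers Efnb2, Ntn4, Ltbp4 and Msr1. This rule chose 1869 of 6552 sinusoidal endothelial cells, which themselves were part of 30362 kept liver cells. Cells with the same rule turned around were called periportal (2917 cells) and served as the comparison, and 1766 cells met neither rule.

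Blood runs through the liver sinusoids from the portal vein to the central vein, and endothelial cells take on different programs along this path. Endothelial cells around the central vein secrete Wnt ligands and the Wnt amplifier R-spondin 3, and the hepatocytes beside them answer through beta-catenin with the enzymes of the pericentral zone. Sinusoidal endothelial cells also take up waste molecules through scavenger receptors and release the bone morphogenetic proteins that set hepcidin production in hepatocytes.

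The study isolated liver cells of 4 mice and read their 3′ RNA tags in droplets with 10x Genomics v3.1 chemistry, 1 library per mouse and 1 mouse per genotype, with no treatment. Hepatocytes and non-parenchymal cells were recovered separately by 2-step digestion in situ and then mixed at a fixed ratio before loading, so the shares of large cell classes depend on the mixing. WT mice were wildtype, YAPKO mice lacked Yap1 in Cre-expressing cells, TAZKO mice lacked Wwtr1 (the gene of TAZ), and DKO mice lacked both. Floxed alleles were crossed to Cre under the albumin promoter, which acts in hepatocytes and biliary cells, so the endothelial cells of every group were left with both genes. The age of these mice was not given in the sources used here.

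The libraries held 13657 barcodes in WT, 7711 in YAPKO, 14418 in TAZKO and 9188 in DKO, with 66259687, 85989454, 49022089 and 77411746 UMIs. After filters on 500 to 6000 genes and at most 10% mitochondrial UMIs, 7155, 6275, 8638 and 8294 cells were kept, with a median of 4618, 7337, 3555.5 and 5952.5 UMIs. YAPKO was the deepest library per cell and TAZKO the shallowest. Between 9 and 26 barcodes of kept cells occurred in both libraries of a pair, and none belonged to a pericentral cell in both. In hepatocyte-gated cells (at least 5% of UMIs from hepatocyte genes) Yap1 stood at 21.1 CPM in WT, 4.54 in YAPKO, 46.3 in TAZKO and 4.53 in DKO (CPM are UMIs over all UMIs of the class and library, times 1e+06), low in the 2 groups that lack it. Wwtr1 there stood at 5.13 in WT, 13.4 in YAPKO, 1.82 in TAZKO and 2.62 in DKO, low in TAZKO and DKO, although a 3′ tag may lie outside the deleted part. With 1 library per genotype, differences between genotypes carry intervals for counting error only and no test, and genotype, mouse and library cannot be told apart.

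Sinusoidal endothelial cells were gated before the zonal rule. At least 0.5% of a cell's UMIs had to come from 9 endothelial genes, including Pecam1, Kdr, Stab2, Clec4g and Ptprb, which 2727 cells in WT, 1969 in YAPKO, 2478 in TAZKO and 2001 in DKO met. Cells with 0.3% or more from Kupffer genes (142, 115, 219 and 190), with 0.1% or more from stellate genes (392, 184, 228 and 172) or with any Ptprc UMI (305, 453, 389 and 558) were left out. This may also remove droplets that hold an endothelial cell and another type, but their number was not measured. Cells with 3 or more UMIs of Vwf, a gene of large-vessel endothelium, were left out as well, 87 in all beyond the other gates.

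Of the sinusoidal endothelial cells, 533 of 2044 were pericentral in WT (26.1%, exact Clopper-Pearson 95% interval 24.2 to 28.0), 371 of 1337 in YAPKO (27.7%, 25.4 to 30.2), 511 of 1873 in TAZKO (27.3%, 25.3 to 29.4) and 454 of 1298 in DKO (35.0%, 32.4 to 37.6). Under this rule the DKO share was the highest of the 4 and its interval did not overlap the others, while the other 3 intervals overlapped. The separation depended on the setting. The rule counts UMIs, so its yield moves with depth. Kept cells with at least 2000 UMIs were also thinned to 2000 before gating, and the others were left out. The shares were then 16.2%, 18.0%, 21.6% and 22.1%, and TAZKO came close to DKO. The gate then found 1873, 1400, 1656 and 1359 sinusoidal endothelial cells, which is not the same set as at full depth. Leaving out Ltbp4, an extracellular matrix gene of the periportal list, gave 29.6%, 34.0%, 30.8% and 36.7%. In DKO, Ltbp4 lay -2.79 log2 from WT in pericentral and -0.47 in periportal cells, and Cdh13 lay 0.25 and 2.72 from WT. The rule uses both genes, so these ratios are a description. Leaving out Kit, the gene with the most marker UMIs, gave 13.3%, 16.7%, 16.9% and 22.7%. These left-out-gene settings were added after the data had been seen. DKO held the highest share in every setting computed, but its interval overlapped those of YAPKO and TAZKO in thinned cells and that of YAPKO without Ltbp4, without Msr1 and with at least 5 marker UMIs.

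**Figure D1:**
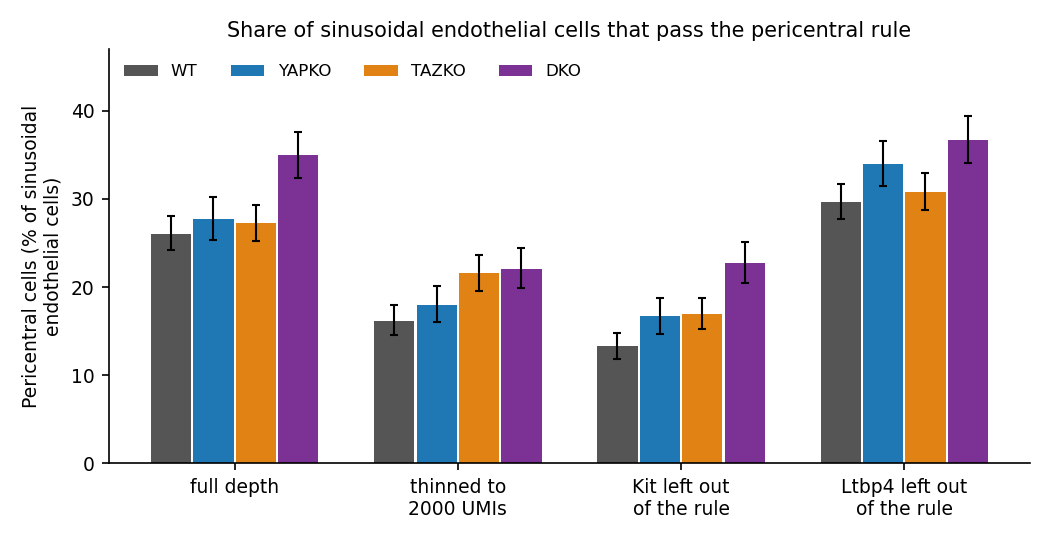
Share of sinusoidal endothelial cells that met the pericentral rule, in percent, in each library under 4 settings, with exact 95% intervals. DKO was highest in each setting shown, from 22.1% in thinned cells to 36.7% with Ltbp4 left out, and the gap to TAZKO nearly closed in thinned cells.

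Some cells lay close to the threshold. Pericentral cells with exactly 3 marker UMIs, just inside, numbered 44 in WT, 14 in YAPKO, 58 in TAZKO and 33 in DKO, and cells just outside, with 2 marker UMIs and at most 1 periportal UMI, numbered 52, 15, 89 and 28. A further 232, 230, 224 and 162 cells had at least 3 marker UMIs but too many periportal ones. The median pericentral cell held 8, 13, 7 and 10 UMIs of the 4 markers and 1, 2, 1 and 1 of the periportal genes. All 4 markers were seen together in 63, 91, 65 and 93 cells, and a single marker carried the choice in 35, 11, 33 and 25. Pericentral cells had a median of 5698 UMIs in WT, 7881 in YAPKO, 3909 in TAZKO and 6231.5 in DKO, against 5301, 7596, 4335.5 and 5539 in periportal cells. The median number of genes detected in a pericentral cell was 2552, 3149, 2077 and 2751.5.

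The 4 markers chose the cells, so their values are a description. Wnt2 encodes a secreted Wnt ligand (ENSMUSG00000010797, chromosome 6, 17988940 to 18030585, minus strand, GRCm38 with GENCODE M21 coordinates). It stood at 503 CPM in WT, 549.9 in YAPKO, 719 in TAZKO and 526 in DKO in pericentral cells and at 46.4, 47.1, 99.7 and 50.3 in periportal cells, and unassigned cells lay between at 211, 243, 340.2 and 189.6. A Wnt2 UMI was found in 89.5% of pericentral cells in WT, 93.5% in YAPKO, 93.0% in TAZKO and 91.4% in DKO. Hepatocyte-gated cells, which should lack it, showed one in 0.537% in WT, 0.753% in YAPKO, 0.519% in TAZKO and 0.784% in DKO at median depths of 2163, 6130, 1844 and 6253 UMIs, far below the pericentral cells of each library. Thinned to 2000 UMIs, the pericentral shares were 60.7% in WT, 63.4% in YAPKO, 76.4% in TAZKO and 62.0% in DKO, the highest in TAZKO.

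Kit is the receptor of stem cell factor (ENSMUSG00000005672, chromosome 5, 75574916 to 75656722, plus strand). Its level was 903 CPM in WT, 898 in YAPKO, 837 in TAZKO and 808 in DKO in pericentral cells, the most even of the 4 markers across libraries. Cdh13, a cadherin anchored to the membrane by a lipid tail, stood at 177 CPM in WT, 184 in YAPKO, 241 in TAZKO and 211 in DKO and was found in 52.3% of pericentral cells in WT, 63.1% in YAPKO, 52.3% in TAZKO and 61.9% in DKO. In periportal cells a Cdh13 UMI was found in 2.61% in WT, 8.15% in YAPKO, 3.31% in TAZKO and 17.2% in DKO, with DKO the highest, and in hepatocyte-gated cells in 0.0896% in WT, 0.418% in YAPKO, 0.0974% in TAZKO and 0.588% in DKO. Rspo3 encodes R-spondin 3, which keeps Wnt receptors on the surface of the receiving cell (ENSMUSG00000019880, chromosome 10, 29452416 to 29535867, minus strand). It reached 144 CPM in WT, 286 in YAPKO, 194 in TAZKO and 173 in DKO in pericentral cells and 4.64, 2.68, 4.84 and 4.38 in periportal cells. Stellate-gated cells, which also make Rspo3, held 533, 406, 698 and 326 CPM, more than pericentral cells in every library. These levels rest on few cells, 32 in WT, 14 in YAPKO, 28 in TAZKO and 29 in DKO.

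Each marker was also left out of the rule in turn, a check added after the data had been seen. Cells then chosen by the other 3 markers and the periportal genes held more of the left-out marker than periportal cells in every library. The log2 difference was 2.57, 2.83, 2.07 and 2.56 for Wnt2 in WT, YAPKO, TAZKO and DKO, and 2.17, 2.09, 2.13 and 2.26 for Kit. For Cdh13 it was 3.90, 3.40, 4.03 and 2.06, the smallest in DKO, and for Rspo3 it was 4.56, 6.48, 5.12 and 5.09. Each marker was thus also higher where the other genes alone had chosen the cells. Rspo3 was the most unevenly spread over cells, with no UMI in 443, 249, 416 and 336 pericentral cells and 3 or more in 36, 60, 37 and 57.

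Genes that the rule and the gate did not use were compared between pericentral and periportal cells over 8 sums, 1 per class and library, with the library as a block. Of 11149 genes tested, edgeR's quasi-likelihood test with Benjamini-Hochberg adjustment called 758 higher (6.80%) and 653 lower (5.86%) in pericentral cells at an adjusted p under 0.05. All 4 libraries moved the same way for 718 of the 758 and 631 of the 653. At least 2-fold differences were found for 146 higher and 91 lower genes, and the median log2 difference was 0.49 among higher genes, -0.43 among lower genes and 0.01 over all genes tested. Of the fits without a library, the one without WT called the fewest genes, 464 and 412. Without YAPKO they were 524 and 473, without TAZKO 822 and 605, and without DKO 587 and 493. DESeq2 called 396 and 340, all among the 1411 of edgeR. Fitted without the library block, edgeR called 68 and 53.

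The largest fitted difference among the named genes was that of a Wnt ligand. Wnt9b (ENSMUSG00000018486, chromosome 11, 103727364 to 103749821, minus strand), a ligand of the central vein, stood at 31.8 CPM in WT, 31.4 in YAPKO, 41.6 in TAZKO and 39.5 in DKO in pericentral cells and at 0.581, 0.575, 0 and 0.625 in periportal cells. The 2 classes did not overlap in any pair of libraries, and the fitted log2 difference was 6.13 (edgeR's quasi-likelihood test with Benjamini-Hochberg adjustment, p 1.16e-09, higher in 4 of 4 libraries). A Wnt9b UMI was found in 10.9% of pericentral cells in WT, 16.2% in YAPKO, 8.81% in TAZKO and 15.4% in DKO, so most pericentral cells showed none. In periportal cells it was found in 0.313% in WT, 0.308% in YAPKO, 0% in TAZKO and 0.383% in DKO, and the 0 of 786 cells in TAZKO allows up to 0.468% of cells with a detected UMI, which is no limit on cells that express it undetected. Among endothelial cells with 3 or more Vwf UMIs, which the gate left out, 2, 4, 2 and 4 of 13, 43, 12 and 19 cells had a Wnt9b UMI, so Wnt9b was also found in large-vessel endothelium. In hepatocyte-gated cells it was found in 0.0653% of cells in DKO and in none of the other libraries. Of 12 genes for Wnt ligands and their secretion, 2 were used by the rule and 4 could be tested, and Wnt9b alone was called, with a list median of 0.14. Wls, which carries Wnt ligands to the cell surface, was among those not called and stood at 142 CPM in WT, 148 in YAPKO, 209.5 in TAZKO and 170.3 in DKO in pericentral cells.

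The counts of called genes in each list stand beside 6.80% higher and 5.86% lower over all genes tested, and a share near these says nothing particular of a list. Of 22 Wnt receptors, inhibitors and targets, 13 could be tested, 3 were higher and 1 was lower, with a median of 0.09. The higher genes were the receptors Fzd4 (log2 0.28) and Lrp5 (0.62) and the secreted Dickkopf family member Dkk3 (0.89). Ctnnb1, the gene of beta-catenin, was lower (-0.44). Fzd4, Lrp5 and Ctnnb1 were called in every fit without a library, while Dkk3 had an adjusted p of 0.0735 by edgeR's quasi-likelihood test with Benjamini-Hochberg adjustment without WT, with a log2 difference of 0.84, and was higher in 4 of 4 libraries.

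The other pericentral markers of sinusoidal endothelium, none of them used by the rule, were higher in all 7 cases, with a median log2 difference of 1.31. The list was chosen with earlier results of these data known, so this count is a description and no independent check of the rule. Lhx6, a LIM homeobox transcription factor (ENSMUSG00000026890, chromosome 2, 36081953 to 36105408, minus strand), stood at 17.9 CPM in WT, 29.5 in YAPKO, 45.8 in TAZKO and 29.0 in DKO in pericentral cells and at 0.194, 1.15, 1.14 and 0 in periportal cells. Every pericentral value was above every periportal one, and the fitted log2 difference was 5.44 (edgeR's quasi-likelihood test with Benjamini-Hochberg adjustment, p 7.03e-09, 4 of 4 libraries). Thbd, the gene of thrombomodulin, which turns thrombin from clotting to protein C activation (ENSMUSG00000074743, chromosome 2, 148404466 to 148408188, minus strand), stood at 139 CPM in WT, 277 in YAPKO, 213 in TAZKO and 237 in DKO against 39.3, 90.0, 68.9 and 77.6. Its log2 difference varied little between libraries, 1.67 ± 0.10 (mean ± SD, n = 4 libraries). Ptgs1, a cyclooxygenase of prostaglandin synthesis, stood at 327 CPM in WT, 362 in YAPKO, 480.1 in TAZKO and 323 in DKO against 130.0, 144, 195 and 132, a difference of 1.31 ± 0.02, the steadiest across libraries of the 5 genes with UMIs in every sum. Fabp4, a fatty acid carrier, stood at 1568 CPM in WT, 2372 in YAPKO, 1265 in TAZKO and 1530.0 in DKO against 563, 975, 598 and 820.0, and Plpp1, a lipid phosphatase, differed by 1.14. Some of these genes were not limited to sinusoidal cells. Of the 13, 43, 12 and 19 cells with 3 or more Vwf UMIs, 7, 35, 10 and 13 had a Thbd UMI and 13, 42, 12 and 19 a Fabp4 UMI. An Lhx6 UMI was found in 1, 4, 0 and 1 of them. Hepatocyte-gated cells had an Lhx6 UMI in 1.25% in WT, 5.94% in YAPKO, 0.877% in TAZKO and 1.57% in DKO.

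Genes picked by size of the difference among those with the same sign in all 4 libraries, 12 in each direction, included Wnt9b and Lhx6. Ackr3, a receptor that clears the chemokine CXCL12 (ENSMUSG00000044337, chromosome 1, 90203980 to 90216751, plus strand), stood at 19.1 CPM in WT, 55.1 in YAPKO, 36.5 in TAZKO and 53.2 in DKO in pericentral cells and at 0.581, 1.15, 2.56 and 2.50 in periportal cells, a log2 difference of 4.72 ± 0.76 (mean ± SD, n = 4 libraries). Ramp3, a partner of the adrenomedullin receptor, stood at 24.0 in WT, 43.1 in YAPKO, 21.7 in TAZKO and 50.6 in DKO against 0.774, 2.68, 0.854 and 2.50, and the guidance ligand Sema3d at 33.8 in WT, 63.2 in YAPKO, 36.1 in TAZKO and 29.0 in DKO against 1.94, 1.72, 3.13 and 1.88. All 3 were near 0 in periportal cells beside their pericentral levels. Lfng, a glycosyltransferase that modifies Notch receptors, stood at 73.7 CPM in WT, 67.4 in YAPKO, 99.0 in TAZKO and 96.3 in DKO against 15.1, 10.7, 19.1 and 12.8, with a difference of 2.56 ± 0.28. Jup, the junction protein plakoglobin, stood at 42.8 CPM in WT, 72.0 in YAPKO, 75.9 in TAZKO and 93.3 in DKO against 4.64, 8.43, 13.4 and 16.6, with a difference of 2.82 ± 0.38. The fit with edgeR's quasi-likelihood test with Benjamini-Hochberg adjustment gave p 1.86e-09 for Ackr3 and 5.88e-10 for Lfng, each higher in 4 of 4 libraries by a fitted log2 of 4.67 and 2.52.

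Gjc1, the gap junction protein connexin-45, had 3.25 CPM in WT, 3.89 in YAPKO, 6.94 in TAZKO and 19.3 in DKO in pericentral cells, with DKO far above the others, and a fitted difference of 4.73. Selp, the leukocyte adhesion molecule P-selectin, had 10.1 CPM in WT, 68.4 in YAPKO, 16.2 in TAZKO and 27.1 in DKO against 0, 5.55, 0.854 and 8.44 and was uneven between libraries, with YAPKO the highest in pericentral cells. Lmcd1 (2.79), Serpina3b (2.56) and the predicted gene Gm13431 (2.81) completed the 12 higher genes. Gm13431 (chromosome 2, 36216777 to 36222934, plus strand) lies between Lhx6 and Ptgs1, which were also called higher. Whether its reads come from other genes or from copies elsewhere was not tested.

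**Figure D2:**
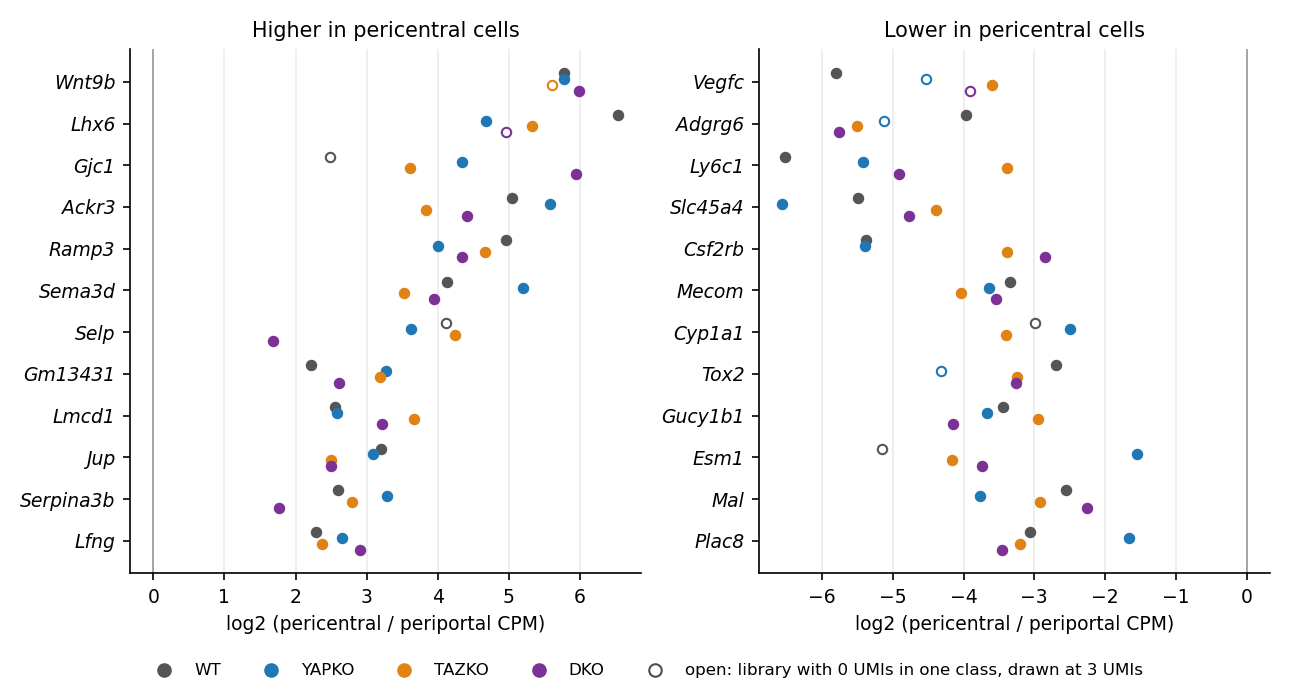
Log2 ratio of CPM in pericentral over periportal cells in each library for the 12 higher and 12 lower genes chosen by the size of the fitted difference among genes with the same sign in all 4 libraries, with 1 point per library and open points where a class had 0 UMIs and was drawn at 3. The spread between libraries has an SD of 0.28 log2 for Lfng, 0.38 for Jup and 0.29 for Mecom.

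On the other side, Mecom, a zinc finger transcription factor (ENSMUSG00000027684, chromosome 3, 29951296 to 30548008, minus strand), stood at 8.44 CPM in WT, 7.78 in YAPKO, 9.71 in TAZKO and 10.4 in DKO in pericentral cells and at 85.5, 97.5, 159 and 122 in periportal cells. Each periportal value was above every pericentral one, and the log2 difference was -3.64 ± 0.29 (mean ± SD, n = 4 libraries; edgeR's quasi-likelihood test with Benjamini-Hochberg adjustment, p 9.72e-12, fitted log2 -3.64, lower in 4 of 4). Vegfc, a ligand of the receptors Flt4 and Kdr, stood at 0.325 CPM in WT, 0 in YAPKO, 1.39 in TAZKO and 0 in DKO against 18.2, 22.4, 16.8 and 14.7, and a count of 0 in YAPKO or DKO allows up to 0.973 or 0.979 CPM. Adgrg6, an adhesion receptor coupled to G proteins, stood at 1.95 in WT, 0 in YAPKO, 1.39 in TAZKO and 0.653 in DKO against 30.4, 33.9, 62.9 and 35.3. Both genes were almost absent from pericentral cells. Gucy1b1, a subunit of the nitric oxide receptor, differed by -3.46, and Csf2rb, the shared receptor chain of GM-CSF, by -4.06.

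Cyp1a1, an enzyme induced through the aryl hydrocarbon receptor, had 0 CPM in WT, 0.648 in YAPKO, 4.16 in TAZKO and 0 in DKO in pericentral cells and 7.74, 3.64, 44.1 and 0.313 in periportal cells, where TAZKO was the highest. Plac8 was low in pericentral cells, at 8.44 CPM in WT, 68.1 in YAPKO, 9.71 in TAZKO and 20.6 in DKO, with YAPKO the highest, against 70.2, 215, 89.4 and 226. The other lower genes were Ly6c1 (-5.27), Slc45a4 (-5.25), Tox2 (-3.47), Esm1 (-3.44) and Mal (-2.73). Pericentral cells of YAPKO had more Esm1 than those of the other libraries, 0 CPM in WT, 4.54 in YAPKO, 0.463 in TAZKO and 0.979 in DKO.

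Of the 7 other periportal markers, 6 could be tested and all 6 were lower in pericentral cells, with a median of -1.75. This list, too, was chosen with earlier results of these data known, so the count is a description. Dll4, a Notch ligand (ENSMUSG00000027314, chromosome 2, 119325784 to 119335962, plus strand), stood at 47.4 CPM in WT, 34.4 in YAPKO, 50.4 in TAZKO and 38.8 in DKO against 126, 104, 139 and 109, with a fitted log2 difference of -1.49 (edgeR's quasi-likelihood test with Benjamini-Hochberg adjustment, p 2.22e-09, lower in 4 of 4 libraries). Efnb1, an ephrin ligand, differed by -2.02, and the fatty acid transporter Cd36 by -1.14. The Notch list showed the same direction in part: of 14 genes 9 could be tested, 5 were lower (Notch1, Dll4, Jag1, Hes1 and Nrarp) and 1 was higher (Dll1), with a median of -0.30. The ligand Jag1 differed by -1.47 and the target gene Hes1 by -1.31. Without WT, 2 of these calls were lost: Dll1 (0.86) then had a log2 difference of 0.57 and Nrarp one of -0.74.

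Angiocrine and vessel lists were mixed. Of 12 genes of the BMP and hepcidin axis, 11 could be tested, 2 were higher (Bmp2 and Eng) and 6 lower (Bmper, Bmpr2, Acvrl1, Smad6, Id1 and Id2), with a median of -0.33. Bmp2, a ligand that drives hepcidin in hepatocytes, stood at 1984 CPM in WT, 1989 in YAPKO, 2079 in TAZKO and 1916 in DKO in pericentral cells and at 1693, 1663, 1529.7 and 1728 in periportal cells. The difference was small, 0.26 log2, and higher in 4 of 4 libraries. Bmper, a secreted BMP modulator, differed by -1.90, and the call of Id1 was lost without WT (log2 -0.22), without YAPKO (-0.35) and without TAZKO (-0.28).

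Of 11 genes for VEGF and angiopoietin signals, 9 could be tested, 6 were higher (Flt1, Flt4, Nrp2, Tek, Tie1 and Vegfa) and 2 lower (Vegfc and Angpt2), with a median of 0.19. Vegfa differed by 1.21 and Angpt2 by -1.51, while the 5 higher receptors differed by at most 0.26. The calls of Flt4, Nrp2, Tek and Tie1 were each lost without WT, with log2 differences of 0.17, 0.18, 0.17 and 0.17, and without YAPKO, with 0.16, 0.12, 0.19 and 0.21. Flt4 and Nrp2 also lost it without DKO (0.22 and 0.20), and Tek and Tie1 without TAZKO (0.17 and 0.18).

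Of 14 genes of large vessels and capillaries, 11 could be tested, 6 were higher (Plvap, Selp, Emcn, Cav1, Col4a1 and Col4a2) and 4 lower (Cd34, Ly6c1, Ly6a and Esm1), with a median of 0.48. Plvap, the protein of the diaphragms in endothelial pores, differed by 0.80, Cd34 by -2.30 and Ly6a by -2.02. Of 15 ephrins and guidance genes, 9 could be tested, 2 were higher (Ephb4 and Plxnc1) and 3 lower (Efna1, Efnb1 and Plxnd1), with a median of -0.11. Ephb4, an ephrin receptor and a venous gene in other vessels, was among the higher genes. Whether it acts with any of the lower ephrins was not tested.

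Scavenger receptors went both ways. Of 12 genes, 10 could be tested, 5 were higher (Stab1, Mrc1, Lyve1, Scarb1 and Dab2) and 2 lower (Cd36, by -1.14, and Ehd3), with a median of 0.08. Stab1, a receptor for oxidised lipoproteins and matrix fragments, differed by 0.49 and was called in every fit without a library. Lyve1, a hyaluronan receptor, had a fitted difference of 0.45 but was higher in 3 of 4 libraries, at 972 CPM in WT, 1182 in YAPKO, 623 in TAZKO and 412 in DKO in pericentral and 552, 695, 665 and 342 in periportal cells. TAZKO had less Lyve1 in pericentral cells, and the call was lost without WT (0.32) and without YAPKO (0.33). Of the others, Mrc1 and Dab2 lost their calls without WT (0.15 and 0.14) and without YAPKO (0.16 and 0.19), Mrc1 without TAZKO (0.13), Dab2 without DKO (0.19), Ehd3 without WT, YAPKO and DKO (-0.15, -0.14 and -0.15) and Scarb1 without YAPKO (0.27).

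Of 16 endothelial transcription factors, all could be tested, 1 was higher (Lhx6, against 6.80% of all genes) and 6 lower (against 5.86%; Meis1, Meis2, Sox17, Sox18, Erg and Mecom), with a median of -0.11. Leaving out a library lost the calls of Meis2 (-0.20 without WT), Erg (-0.26 without WT, -0.21 without YAPKO and -0.25 without TAZKO) and Sox18 (-0.23 without YAPKO, -0.20 without TAZKO and -0.15 without DKO). Of 16 Hippo pathway genes, 15 could be tested, 1 was higher (Amotl2), close to the 6.80% of all genes, and 3 were lower (Yap1, Wwtr1 and Lats2; 5.86% of all genes), with a median of -0.15. Of 16 YAP and TAZ target genes, 9 could be tested, 2 were higher (Amotl2 and Dlc1) and 4 lower (Ccn2, Cdc42ep3, Lats2 and Crim1), with a median of -0.23. Amotl2 lost its call without any of WT, YAPKO, TAZKO and DKO (0.19, 0.23, 0.20 and 0.16), and Lats2 without WT, YAPKO and DKO (-0.28, -0.16 and -0.28). Ccn2, a matricellular protein and common readout of YAP, differed by -1.40, lower in 4 of 4 libraries. Wwtr1 differed by a fitted -0.41 and Yap1 by -0.34, each lower in 4 of 4 libraries, and the call of Yap1 was lost without WT (-0.34) and without TAZKO (-0.26).

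Of 16 interferon-stimulated genes, all could be tested, 1 was higher (Cxcl10, against 6.80% of all genes) and 9 lower (against 5.86%), with a median of -0.26. Irf7, the transcription factor that amplifies interferon production, differed by -0.83. Cxcl10 lost its call without WT (0.21) and YAPKO (0.28), and Gbp2 without WT (-0.35) and DKO (-0.25), while Rsad2 gained one without TAZKO (-0.39). Of 13 adhesion molecules and chemokines, 10 could be tested, 6 were higher (Icam1, Icam2, Selp, Cxcl1, Ccl2 and Ackr3) and 1 lower (Csf1), with a median of 0.50. The calls of Ccl2 and Cxcl1 were lost without YAPKO (0.81 and 0.67), where 151 of 216 Ccl2 UMIs and 40 of 76 Cxcl1 UMIs lay in 1 pericentral cell each. Cxcl1 also lost it without DKO (0.73), Icam1 without WT (0.29) and YAPKO (0.18), and Csf1 without WT, TAZKO and DKO (-0.30, -0.24 and -0.15). Icam2 (0.68) kept its call in each fit without a library. Of 15 immediate early and heat shock genes, 2 were higher (Jun and Ier3) and none lower, with a median of 0.03, and Jun differed by 0.64. Ier3 lost its call without YAPKO (0.35) and without DKO (0.35), while Ier2 (-0.35) and Hspa1a (-0.35) gained one without TAZKO and Hspa1b (0.64) without WT.

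**Figure D3:**
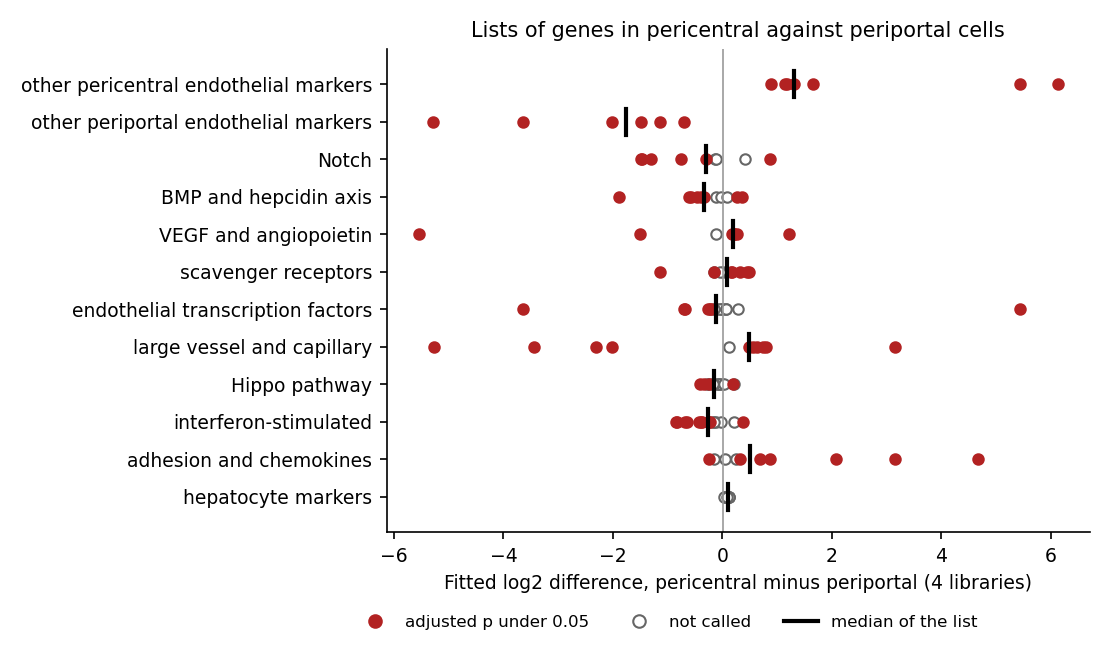
Fitted log2 difference between pericentral and periportal cells over 4 libraries for the genes of 12 lists, with filled points for an adjusted p under 0.05 and a bar at the median of each list. The other pericentral markers have a median of 1.31 and the other periportal markers one of -1.75, against 0.01 over all genes tested. The lists were chosen with earlier results of these data known.

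Among pericentral cells, those with an Rspo3 UMI numbered 90 in WT, 122 in YAPKO, 95 in TAZKO and 118 in DKO. Comparing them with the pericentral cells that had none is a description without a test, on genes singled out after their values had been seen. Depth was similar on both sides, with medians of 5943.5 against 5633 UMIs in WT, 7657.5 against 7920.0 in YAPKO, 4094 against 3855.5 in TAZKO and 6482 against 6166.5 in DKO. Of 7994 genes compared, 55 had a counting interval above 0 in all 4 libraries and 29 had one below 0. The median over all genes of the mean log2 difference was 0.01.

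Wnt9b stood at 116 CPM in WT, 58.0 in YAPKO, 154 in TAZKO and 103 in DKO in pericentral cells with Rspo3 and at 13.8 in WT, 17.7 in YAPKO, 13.3 in TAZKO and 14.9 in DKO without it. The log2 differences were 3.08, 1.71, 3.53 and 2.79 in WT, YAPKO, TAZKO and DKO. Summed over cells, Wnt9b was thus higher in the pericentral cells with Rspo3 in each library. Rspo3 is a gene of the rule, and this split is a description. Selp stood at 48.1 CPM in WT, 138 in YAPKO, 66.6 in TAZKO and 68.0 in DKO with Rspo3 and at 1.97 in WT, 32.5 in YAPKO, 3.48 in TAZKO and 11.3 in DKO without it. Lhx6 differed by 2.39, 1.76, 2.25 and 2.001, Fabp4 by 1.50, 1.07, 1.14 and 1.22 and Thbd by 1.39, 0.73, 1.59 and 1.60. The cytokine gene Il33 differed by 1.45, 1.61, 1.99 and 2.07. Of the rule genes, Cdh13 differed by 1.02, 0.94, 1.05 and 0.89 and Wnt2 by less, 0.52, 0.37, 0.15 and 0.33, with an interval that held 0 in TAZKO. Genes lower in cells with Rspo3 were Bmp6, another hepcidin ligand, by -0.52, -0.75, -0.46 and -1.27, Lyve1 by -0.67, -0.13, -0.76 and -1.10 and Cd36 by -0.64, -0.32, -0.30 and -0.73. RNA of other cell types also differed between these cells. The stellate markers Ecm1 and Rgs5, which the gate did not use, differed by 0.86, 0.14, 0.80 and 0.90 for Ecm1 and 0.51, 0.37, 0.92 and 0.43 for Rgs5, with intervals that held 0 for both in YAPKO and for Rgs5 in DKO. The hepatocyte markers Alb and Fabp1 differed by -0.30, 0.18, -0.27 and 0.63 and by -0.39, 0.34, -0.37 and 1.14, above 0 in YAPKO and DKO and below 0 in WT and TAZKO. The part of stellate and hepatocyte RNA in the differences by Rspo3 was not tested. Large-vessel endothelium held Rspo3 too, in 3, 6, 2 and 4 of the 13, 43, 12 and 19 cells with 3 or more Vwf UMIs, and the gate kept cells with 1 or 2. Such Vwf UMIs were seen in 7, 5, 3 and 4 pericentral cells with Rspo3 (7.78%, 4.10%, 3.16% and 3.39%) and in 2, 3, 0 and 3 without it (0.451%, 1.20%, 0% and 0.893%). In pericentral cells with no Vwf UMI, a split added after seeing the data, Wnt9b differed by 2.43, 1.53, 3.25 and 2.83, Lhx6 by 2.23, 1.58, 2.20 and 1.97, Fabp4 by 1.45, 1.03, 1.13 and 1.22 and Thbd by 1.21, 0.65, 1.54 and 1.60. Il33 differed by 1.08, 1.59, 1.84 and 1.80, and its interval in WT then held 0. Lyve1 then differed by -0.65, -0.09, -0.70 and -1.04, Cd36 by -0.67, -0.30, -0.25 and -0.74 and Bmp6 by -0.42, -0.93, -0.43 and -1.22, with intervals that held 0 for Lyve1 in YAPKO and for Bmp6 in WT and TAZKO. The part of vessel cells with no detected Vwf was not tested.

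RNA of other cell types was measured in pericentral cells because droplets take up free RNA. The 6 hepatocyte markers summed to 7712 CPM in WT, 1493 in YAPKO, 8773 in TAZKO and 4079 in DKO, with Alb the most abundant (1705, 361, 3305 and 1143) and none at 0. Pericentral cells of YAPKO held the least and those of TAZKO the most. None of the 6 differed between pericentral and periportal cells in the test, with a median of 0.10, although Alb, Apoa1, Fabp1 and Ttr passed the threshold when YAPKO was left out, with log2 differences of 0.21, 0.25, 0.25 and 0.29. Of 10 periportal hepatocyte genes all could be tested and none was called (median 0.10), but Ass1 was called without YAPKO (0.26). Of 10 pericentral hepatocyte genes, 6 could be tested and Glul, which endothelial cells also express, was lower (-1.30), with a list median of 0.11.

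The ratio of Cyp2e1 to Cyp2f2 UMIs, a pericentral to a periportal hepatocyte enzyme, was 0.141 in WT (95% interval 0.0808 to 0.231), 0.480 in YAPKO (0.220 to 0.991), 1.49 in TAZKO (1.22 to 1.82) and 0.652 in DKO (0.397 to 1.06) in pericentral cells. In periportal cells it was 0.184, 0.481, 1.37 and 1.17, and in hepatocyte-gated cells 0.108, 0.153, 0.512 and 0.404. The ratio in pericentral cells was not above that in periportal cells in WT, YAPKO and DKO, and TAZKO was the highest library in all 3 kinds of cells.

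The 7 Kupffer markers summed to 64.3 CPM in WT, 228 in YAPKO, 27.3 in TAZKO and 49.6 in DKO in pericentral cells, and C1qa was the most abundant at 30.8, 191, 12.5 and 31.0. In YAPKO a C1qa UMI was seen in 196 of 371 pericentral cells, against a periportal level of 25.5 CPM and a Kupffer-gated level of 6641. Adgre1 was at 0 in TAZKO, and 4 of the 7 genes served in the gate. The 6 stellate markers summed to 319 CPM in WT, 246 in YAPKO, 241 in TAZKO and 151 in DKO, of which 2 could be tested and Ecm1 was called higher, a call lost without WT (0.29) and without YAPKO (0.31). The 7 leukocyte markers summed to 11.7 CPM in WT, 16.5 in YAPKO, 9.25 in TAZKO and 4.89 in DKO, with Ptprc at 0 by the gate, and the 2 that could be tested were not called. The 4 biliary markers summed to 282 CPM in WT, 7.13 in YAPKO, 286 in TAZKO and 149.8 in DKO, nearly all from Spp1, whose UMIs lay in few cells, and the 2 that could be tested were not called, although Spp1 (1.78) and Epcam (1.62) were without YAPKO. Of the 5 sex-linked genes, Xist was at 0 in all 4 libraries and the 4 tested were not called. The part of these RNAs in the other results was not tested.

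Each knock-out was set beside WT within pericentral cells, for genes with at least 100 UMIs in the 2 libraries together. A gene could meet this minimum through the library where it was high, so the genes behind a list median can differ by library. These comparisons all share the WT library. In YAPKO, 64 of 7314 genes were at least 2-fold higher than in WT (0.875%) and 135 were lower (1.85%). In TAZKO, 187 of 6991 were higher (2.67%) and 105 lower (1.50%), and in DKO, 97 of 7332 were higher (1.32%) and 122 lower (1.66%). The median log2 ratio over all genes was 0.05 in YAPKO, 0.14 in TAZKO and 0.07 in DKO. TMM scaling moved these medians to 0.01, -0.01 and 0.00, and the TAZKO counts to 117 higher and 179 lower, so the balance of TAZKO turned with the scaling.

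Part of these genes were far higher in other cell types than in pericentral cells. Over 4 times higher in hepatocyte-gated than in pericentral cells were 219 of the 7314 genes compared in YAPKO, 280 of 6991 in TAZKO and 254 of 7332 in DKO. Among the genes past 2-fold, these were 2 of the 64 higher and 108 of the 135 lower in YAPKO, 75 of 187 and 17 of 105 in TAZKO, and 5 of 97 and 47 of 122 in DKO. Without genes over 4 times higher in any other gated type, 44 higher and 24 lower genes remained in YAPKO, 106 and 72 in TAZKO, and 77 and 63 in DKO. Past 2-fold in the same direction in periportal cells were 26 of the 64 higher and 98 of the 135 lower genes of YAPKO, 101 of 187 and 65 of 105 of TAZKO, and 48 of 97 and 81 of 122 of DKO. Over all genes compared in periportal cells, 56 were past 2-fold higher and 148 lower of 8652 in YAPKO. The counts were 240 and 139 of 8392 in TAZKO and 108 and 141 of 8128 in DKO. Of the higher genes of YAPKO and DKO, 54 of 64 and 76 of 97 had 100 UMIs in periportal cells. Differences past 2-fold in pericentral cells were thus often found in periportal cells of the same library, though not for most higher genes of YAPKO. Among higher genes with 100 UMIs in periportal cells, the shared ones were 26 of 54 in YAPKO and 48 of 76 in DKO. The other higher genes could not be compared there.

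Several of the largest ratios fell on ribosomal pseudogenes and near copies, between which reads may be split. Rps3a3 had 0 CPM in WT, 1.30 in YAPKO, 659 in TAZKO and 1303 in DKO in pericentral cells, at least 9.40 log2 above WT in TAZKO and at least 10.39 in DKO, taking 3 UMIs as the limit for the 0 in WT. Its copy Rps3a1 had 1307 in WT, 1671 in YAPKO, 85.1 in TAZKO and 136 in DKO, low in the same 2 libraries. Rps15a-ps8 (0.649, 0.973, 69.4 and 248 CPM), Rps13-ps1 in DKO (log2 3.87), Gm8420 (0 in TAZKO, at least 7.36 log2 lower), Gm11942 (0 in TAZKO, at least 4.69 lower), Gm14094 (-7.22 in TAZKO), AA465934 (-5.42) and Gm4841 (4.60) were of this kind or are predicted genes, as was Gm37121 in YAPKO (-1.80). The Trim cluster behaved alike, with Trim30d at 60.4 CPM in WT, 51.9 in YAPKO, 25.9 in TAZKO and 0 in DKO, at least 5.95 log2 lower in DKO, Trim12a at -5.59 and Trim34a at -3.02. For these genes genotype, mouse and genetic background cannot be told apart.

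Other genes were near 0 in pericentral cells of some libraries and clearly present in others, and for these too genotype, mouse and genetic background cannot be told apart. Ifi44l, an interferon-stimulated gene (ENSMUSG00000039146, chromosome 3, 151758737 to 151762892, minus strand), had 0 CPM in WT, 0 in YAPKO, 85.1 in TAZKO and 0 in DKO and was found in 131 of 511 pericentral cells of TAZKO, at least 6.45 log2 above WT. Tnfrsf10b, the death receptor of TRAIL, had 0.649 CPM in WT, 0.648 in YAPKO, 49.0 in TAZKO and 51.2 in DKO and was found in 2 pericentral cells in WT, 2 in YAPKO, 95 in TAZKO and 130 in DKO. Nexn, an actin-binding protein, had 50.3 CPM in WT, 49.0 in YAPKO, 0.925 in TAZKO and 57.1 in DKO, and only TAZKO was near 0, with 2 of 511 cells. Plppr5, a membrane protein related to lipid phosphatases (ENSMUSG00000033342, chromosome 3, 117574836 to 117689507, plus strand), had 43.8 CPM in WT, 43.4 in YAPKO, 2.78 in TAZKO and 2.28 in DKO in pericentral and 0.581, 0.575, 0 and 0 in periportal cells. It marked pericentral cells of WT and YAPKO, in 17.6% and 24.3% of them against 0.313% and 0.462% of periportal cells, and was nearly lost from TAZKO and DKO, with log2 ratios of -3.98 (95% interval -5.45 to -2.82) and -4.26 (95% interval -5.60 to -3.18).

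Cgnl1, a tight junction protein also called paracingulin (ENSMUSG00000032232, chromosome 9, 71626509 to 71771602, minus strand), had 3.25 CPM in WT, 1.30 in YAPKO, 5.55 in TAZKO and 68.8 in DKO in pericentral cells and 3.096, 2.30, 3.99 and 15.3 in periportal cells. It was found in 7 pericentral cells in WT, 4 in YAPKO, 11 in TAZKO and 143 in DKO, and DKO stood alone, 4.41 (95% interval 3.50 to 5.49) log2 above WT and 2.31 in periportal cells. Hepatocyte-gated cells held 27.0, 40.4, 38.3 and 37.8 CPM, with no such rise in DKO. Steap2, a metalloreductase, had 2.60 CPM in WT, 33.4 in YAPKO, 4.16 in TAZKO and 13.4 in DKO, highest in YAPKO, with a ratio of 3.68 (95% interval 2.65 to 4.93). Armcx4 had 47.1 CPM in WT, 246 in YAPKO, 53.7 in TAZKO and 95.6 in DKO in pericentral and 109, 361, 87.2 and 179.8 in periportal cells, and Rasd1, a small GTPase, had 56.5 in WT, 201 in YAPKO, 62.9 in TAZKO and 92.7 in DKO in pericentral cells, both highest in YAPKO. Igha in YAPKO came from 1 cell, which held 1226 of 1227 UMIs. Spp1 UMIs, 775 in WT and 19 in YAPKO, lay in 11 and 9 pericentral cells.

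Selp was higher in pericentral cells of YAPKO, with a ratio of 2.77 (95% interval 2.22 to 3.36), and was found in 3.94% of pericentral cells in WT, 25.3% in YAPKO, 3.91% in TAZKO and 12.6% in DKO and in 0% of periportal cells in WT, 3.38% in YAPKO, 0.127% in TAZKO and 4.21% in DKO. Of 13 adhesion molecules and chemokines, 9 could be compared in YAPKO and their median was 0.79, against 0.05 over all genes. Selp and Ccl2 met the minimum of UMIs through their counts in YAPKO, so this median cannot show a rise of the list. Past 2-fold were Vcam1, Selp, Ccl2 and Ackr3. Vcam1, which binds leukocyte integrins, stood at 86.7 CPM in WT, 225 in YAPKO, 73.1 in TAZKO and 124 in DKO, and Ackr3 was higher than in WT by a log2 of 1.53 in YAPKO, 0.93 in TAZKO and 1.47 in DKO. The Ccl2 ratio of 4.29 came mostly from 1 pericentral cell. The list median was -0.18 over 7 genes in TAZKO and 0.10 over 8 genes in DKO, where Selp and Ackr3 were past 2-fold. Selp was compared in DKO but had too few UMIs in TAZKO. The medians thus cover different genes and are no comparison between libraries.

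Immediate early and heat shock genes, which respond to stress within minutes, summed highest in pericentral cells of WT. The 15 genes summed to 2288 CPM in WT, 908 in YAPKO, 1391 in TAZKO and 1295 in DKO in pericentral cells and to 2313 in WT, 907 in YAPKO, 1143 in TAZKO and 1092 in DKO in periportal cells. In Kupffer-gated cells they summed to 2190.2 in WT, 1495 in YAPKO, 2813 in TAZKO and 2111 in DKO, where WT was not the highest. Fos, a subunit of AP-1, stood at 304 CPM in WT, 19.8 in YAPKO, 25.9 in TAZKO and 33.0 in DKO in pericentral cells, with log2 ratios of -3.94 in YAPKO, -3.56 in TAZKO and -3.21 in DKO. Egr1 stood at 213 in WT, 17.8 in YAPKO, 41.6 in TAZKO and 16.6 in DKO with ratios of -3.58 in YAPKO, -2.35 in TAZKO and -3.68 in DKO, and Fosb at 52.9 in WT, 3.57 in YAPKO, 11.1 in TAZKO and 14.4 in DKO. The chaperone genes Hspa1a (181, 4.86, 80.9 and 34.9 CPM) and Hspa1b (343, 14.6, 185 and 60.7) were lowest in YAPKO, and reads may be split between these near copies. Of 13 genes compared, 11 had an interval below 0 in YAPKO (10.8% of all genes did), 8 in TAZKO (16.5%) and 8 in DKO (12.002%), with medians of -1.002, -0.87 and -0.83. An interval above 0 was found in YAPKO for 1 of the 13, Ier3 (1.33; 19.1% of all genes), in TAZKO for none (31.1%) and in DKO for 3 (21.9%), Ier3 (1.65), Jun (0.35) and Jund (0.40). The cause was not tested.

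The 16 interferon-stimulated genes were also summed. They came to 3037 CPM in WT, 3600.4 in YAPKO, 1973 in TAZKO and 1861 in DKO in pericentral cells and to 3626 in WT, 4334 in YAPKO, 2303 in TAZKO and 2385 in DKO in periportal cells. In pericentral cells Bst2, a protein that tethers budding virus particles, was the most abundant at 1656, 1755, 582 and 955. Without Bst2, a sum added after seeing the data, the other 15 came to 1381, 1846, 1391 and 906 CPM in pericentral and 1725, 2276, 1604 and 1292 in periportal cells. The low sum of TAZKO in pericentral cells thus came from Bst2, while DKO was the lowest without it. In DKO 12 of the 16 had an interval below 0 (12.002% of all genes) and 1 above (21.9%), with a median of -0.68. In YAPKO 9 were above (19.1%) and 1 below (10.8%), with a median of 0.32, and in TAZKO 3 were above (31.1%) and 6 below (16.5%), with a median of -0.06. Isg15, a ubiquitin-like protein, stood at 152 CPM in WT, 183 in YAPKO, 84.6 in TAZKO and 56.4 in DKO in pericentral cells, with YAPKO the highest and DKO the lowest. Ifi27l2a rose past 2-fold in YAPKO (1.29) and Ifit1 in TAZKO (1.09), where Bst2 was at -1.51.

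**Figure D4:**
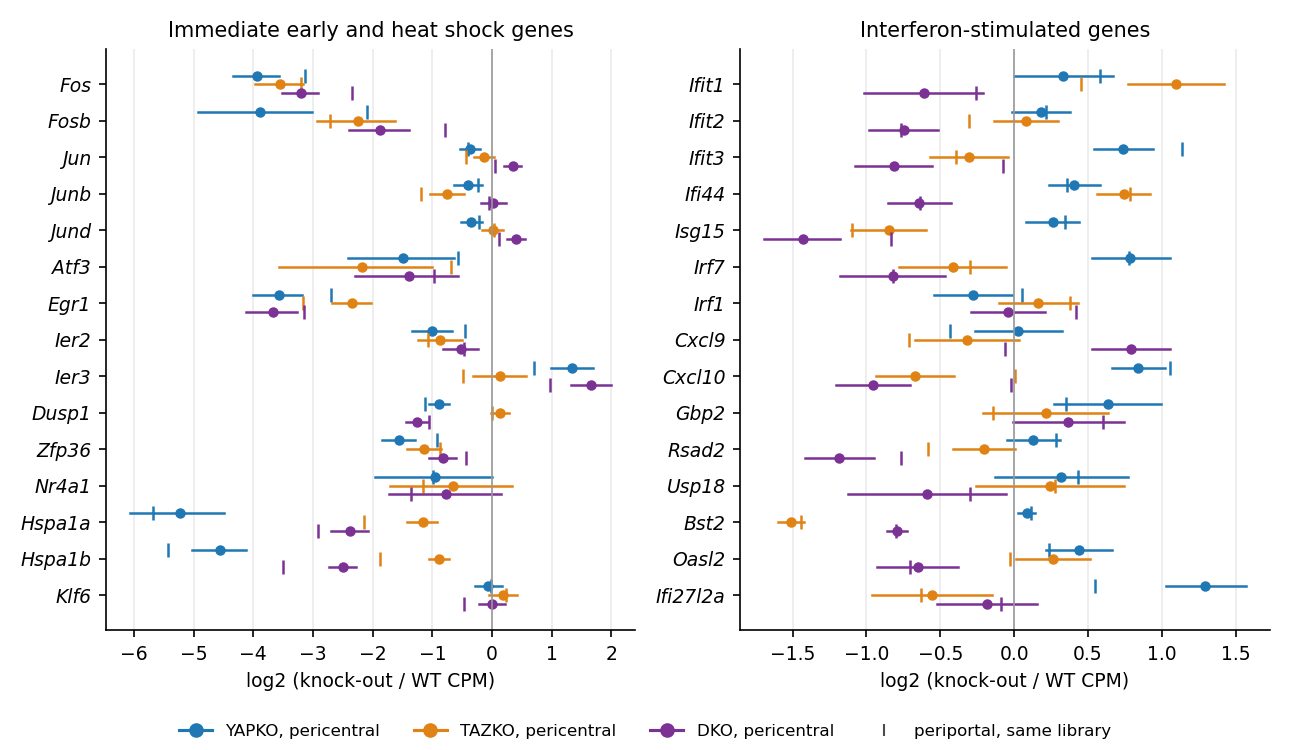
Log2 ratio of each knock-out to WT in pericentral cells, with 95% counting intervals, for the immediate early and heat shock genes and 15 of the interferon-stimulated genes, and ticks for periportal cells of the same library. Fos lies at -3.94, -3.56 and -3.21 in YAPKO, TAZKO and DKO, and most interferon-stimulated genes of DKO lie below 0.

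Genes of the zonal program itself also differed between libraries. Cd36, low in pericentral cells of WT, stood at 221 CPM in WT, 510.0 in YAPKO, 813 in TAZKO and 881 in DKO. Every knock-out was above WT, with log2 ratios of 1.21 in YAPKO, 1.88 in TAZKO and 1.99 in DKO, and periportal cells showed smaller ratios of 0.53 in YAPKO, 0.79 in TAZKO and 0.998 in DKO. The gap between the 2 classes was thus widest in WT. Thbd rose by 0.995 in YAPKO, 0.62 in TAZKO and 0.77 in DKO in pericentral cells and by 1.20 in YAPKO, 0.81 in TAZKO and 0.98 in DKO in periportal cells. Plvap stood at 132 CPM in WT, 214 in YAPKO, 259 in TAZKO and 289 in DKO in pericentral cells, lowest in WT, with ratios of 0.70 in YAPKO, 0.97 in TAZKO and 1.13 in DKO. Lyve1 lay below WT in TAZKO, at -0.64 (95% interval -0.74 to -0.55), and in DKO, at -1.24 (95% interval -1.33 to -1.14), and above it in YAPKO (0.28). Ctsl, a lysosomal protease, stood at 2123 CPM in WT, 1987 in YAPKO, 973 in TAZKO and 1717 in DKO, lowest in TAZKO (-1.13).

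Wnt ligands and related genes were set beside WT as well. Wnt9b had ratios of -0.02 in YAPKO, 0.39 in TAZKO and 0.31 in DKO, each with an interval that held 0, so no difference was detectable at this depth. Wls had ratios of 0.05 in YAPKO, 0.56 in TAZKO and 0.26 in DKO, highest in TAZKO. The rule genes Wnt2 and Rspo3, given as description, had ratios of 0.13 in YAPKO, 0.52 in TAZKO and 0.06 in DKO for Wnt2 and of 0.99 in YAPKO, 0.43 in TAZKO and 0.26 in DKO for Rspo3, with Wnt2 highest in TAZKO and Rspo3 highest in YAPKO. Lhx6 was above WT in each, by 0.72 in YAPKO, 1.36 in TAZKO and 0.70 in DKO. The median of the 7 other pericentral markers was 0.15, 0.39 and -0.02, and none was below WT by 2-fold.

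**Figure D5:**
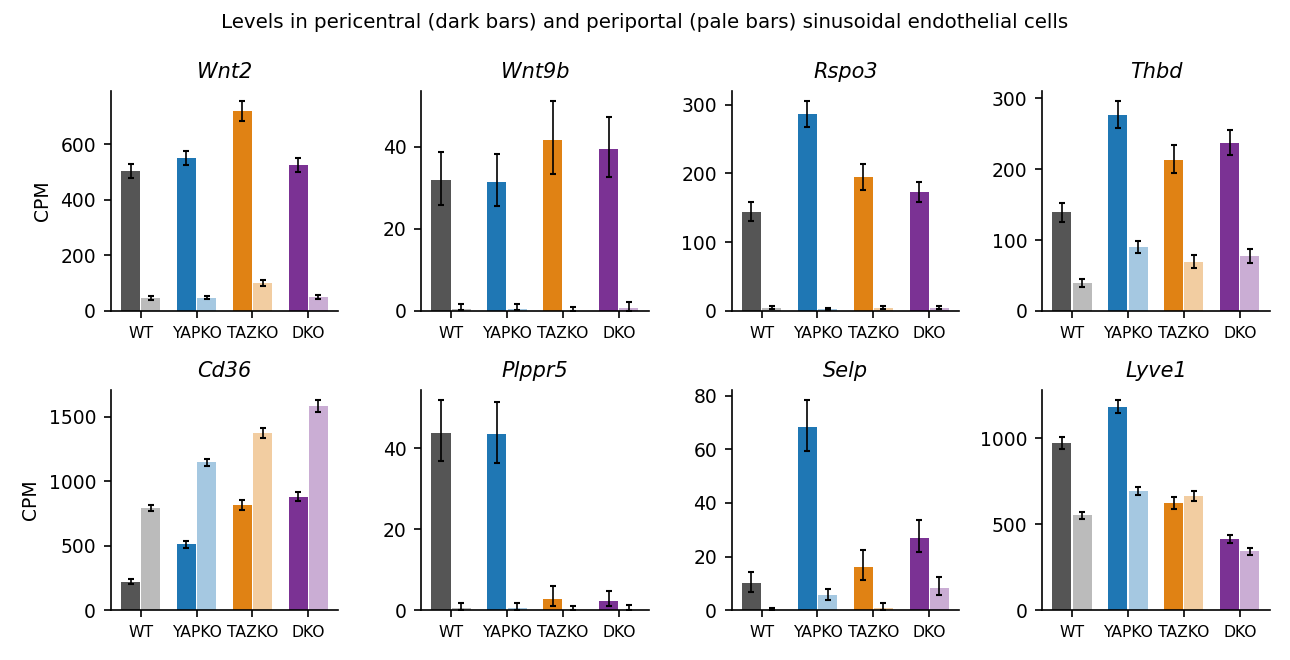
CPM of 8 genes in pericentral (dark) and periportal (pale) cells of each library, with 95% Poisson intervals. Wnt2, Wnt9b and Rspo3 are high in pericentral cells of every library, Cd36 is lowest in pericentral cells of WT, and Plppr5 is near 0 in TAZKO and DKO.

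The genes deleted in hepatocytes were read in pericentral cells too. Yap1 (ENSMUSG00000053110, chromosome 9, 7931999 to 8004596, minus strand) stood at 32.1 CPM in WT, 37.9 in YAPKO, 46.7 in TAZKO and 34.9 in DKO, with ratios of 0.24 (95% interval -0.16 to 0.64) in YAPKO, 0.54 (95% interval 0.13 to 0.95) in TAZKO and 0.12 (95% interval -0.29 to 0.53) in DKO. Wwtr1 (ENSMUSG00000027803, chromosome 3, 57455649 to 57575910, minus strand) stood at 116 CPM in WT, 136 in YAPKO, 115 in TAZKO and 153 in DKO, with ratios of 0.23 in YAPKO, -0.01 in TAZKO and 0.40 in DKO. Neither gene had an interval below 0 in the pericentral cells of the libraries whose hepatocytes lacked it. A Yap1 UMI was found in 14.6% of pericentral cells in WT, 25.3% in YAPKO, 17.2% in TAZKO and 22.0% in DKO, and in 5.73% in WT, 5.19% in YAPKO, 9.02% in TAZKO and 5.37% in DKO after thinning, with TAZKO then the highest. In hepatocyte-gated cells the raw share was 11.1% in WT, 5.77% in YAPKO, 14.6% in TAZKO and 4.02% in DKO. The median over Hippo pathway genes was -0.07, 0.25 and 0.17, and over YAP and TAZ target genes -0.22, 0.25 and -0.14. Among the targets, Ccn2 stood at 70.4 CPM in WT, 60.3 in YAPKO, 6.94 in TAZKO and 24.8 in DKO, with ratios of -0.22 in YAPKO, -3.34 in TAZKO and -1.51 in DKO in pericentral and 0.30 in YAPKO, -2.95 in TAZKO and -1.64 in DKO in periportal cells. Ccn1, also an immediate early gene, had ratios of -2.46 in YAPKO, -0.70 in TAZKO and -2.45 in DKO.

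The all-gene medians were 0.05, 0.14 and 0.07 in YAPKO, TAZKO and DKO. The other periportal markers, of which 4 could be compared, had medians of -0.12, 0.83 and 0.49, with Cd36 past 2-fold above WT in each knock-out and Efnb1 in TAZKO. Medians were -0.13, 0.09 and -0.26 for scavenger receptors, -0.01, -0.06 and -0.22 for VEGF and angiopoietin genes, and 0.06, 0.10 and 0.22 for the BMP axis. For ephrins and guidance genes they were -0.03, 0.25 and 0.06. In TAZKO, medians were also above 0.14 for Notch genes (0.49), Wnt receptors, inhibitors and targets (0.36) and endothelial transcription factors (0.51). Of the 15 transcription factors compared, 10 had an interval above 0 in TAZKO, as did 31.1% of all genes, and with TMM, a scaling of these intervals added after seeing the data, 9 were above and 2 below, against 1316 above and 1721 below of all 6991 genes. In DKO the highest of these medians was that of large vessel and capillary genes (0.62 over 8 genes), with Plvap and Selp past 2-fold. Selp met the minimum of UMIs through its counts in DKO and had too few in TAZKO. The median of 0.62 thus rests in part on a gene compared because it was high in DKO. Its rank among the lists is a description, and the median without Selp was not computed. The hepatocyte markers had medians of -2.37, -0.08 and -0.92, lowest in YAPKO. A median smaller than the shift from TMM scaling carries no direction.

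Genes of cell division were counted over 533 pericentral cells in WT, 371 in YAPKO, 511 in TAZKO and 454 in DKO, without thinning. Median depth was highest in YAPKO (7881 UMIs) and lowest in TAZKO (3909), and its part in these counts was not tested. Mki67, a protein of cycling cells, was found in 7 of the pericentral cells in WT, 14 in YAPKO, 2 in TAZKO and 5 in DKO, and Top2a, which untangles chromosomes before division, in 9 in WT, 15 in YAPKO, 4 in TAZKO and 10 in DKO. Pcna, which clamps the polymerase to DNA, was found in 172 in WT, 167 in YAPKO, 142 in TAZKO and 169 in DKO and Stmn1, which frees tubulin, in 66 in WT, 74 in YAPKO, 33 in TAZKO and 80 in DKO. The 10 genes of cell division summed to 293 CPM in WT, 480.2 in YAPKO, 145 in TAZKO and 296 in DKO in pericentral cells and to 134 in WT, 282 in YAPKO, 234 in TAZKO and 164 in DKO in periportal cells, with YAPKO the highest and TAZKO the lowest in pericentral cells. Of 9 genes tested between the classes, Mcm5 was called higher, a call lost without WT (0.58) and without YAPKO (0.75). Without TAZKO, Mki67, Top2a, Birc5, Ccnb2, Cdk1, Stmn1 and Mcm2 passed the threshold with log2 differences of 2.35, 2.21, 1.79, 1.77, 1.27, 0.83 and 0.58. In YAPKO 8 genes of division could be compared with WT and 6 had an interval above 0 (19.1% of all genes did). The median of the 8 was 0.82. With the same WT library, 6 could be compared in DKO and 2 in TAZKO. Some genes thus met the minimum of UMIs through their counts in YAPKO, so this count and median cannot show a rise of the list. The sums above include all 10 genes, whatever their UMIs.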

How the data were processed

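The deposited matrices hold counts (UMIs per gene and barcode) that the authors made with Cell Ranger; the labels give version 6.0.1 and the file headers 4.0.0, on mm10. All 4 libraries and 55488 genes were read with Python 3.11.15, numpy 2.4.6, pandas 2.3.3, scipy 1.17.1 and scanpy 1.11.5, and tested with R 4.3.3, edgeR 4.0.16 (TMM, filterByExpr) and DESeq2 1.42.0. The members and lists were chosen with earlier results of these data known. Ratios to WT are of CPM with exact conditional binomial 95% intervals, and 1 UMI was added to each count before calling 2-fold. Named genes were the markers, rule, gate and list genes, the 12 largest called differences in each direction with the same sign in all 4 libraries and at least 100 UMIs, and the 5 highest and 5 lowest ratios to WT without mitochondrial, rule and gate genes and genes over 4 times higher in another gated type. Doublets were kept; leaving out the top 8% of Scrublet scores was an alternative, as were other thresholds, scaling, fits and left-out libraries. Cells outside the filters and sequences of genes were left out, and values of 1 listed gene are not reported here. Intervals and limits for a count of 0 (3 UMIs) cover counting error only.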

Additional observations from a re-analysis of the deposited data

Results flagged for a closer look

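Within named genes, 11 ratios to WT had one sign in pericentral cells and the opposite sign in periportal cells of the same library, each with a counting interval that did not hold 0. In YAPKO this was Sox17, at -0.50 log2 in pericentral and 0.34 in periportal cells. In TAZKO, Lyve1 was at -0.64 against 0.27, Hes1 at 0.51 against -0.26, Fabp4 at -0.31 against 0.09, Bmp2 at 0.067 against -0.15 and Apoa2 at 0.18 against -0.17. Robo4 in TAZKO was at -0.19 against 0.15, Col4a1 at -0.19 against 0.14 and Stmn1 at -2.06 against 0.47. In DKO, Ctsl was at -0.31 against 0.05 and Rgs5 at -0.62 against 0.33. The ratios compared were 167 in YAPKO, 171 in TAZKO and 172 in DKO, so the shares with opposite signs were 0.599%, 4.68% and 1.16%. Over all genes with enough UMIs in both classes they were 23 of 7275 (0.316%), 28 of 6965 (0.402%) and 24 of 7261 (0.331%). The difference between the 2 classes was not tested for any of them, since each genotype had 1 library.

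With TMM factors over the 8 sums of both classes, a scaling added after seeing the data, 4 of the 11 kept opposite signs and intervals without 0: Sox17 in YAPKO, Hes1 and Lyve1 in TAZKO and Rgs5 in DKO. So 6 of the 8 in TAZKO depended on the scaling. Bmp2 turned to -0.10 in pericentral cells and was then below WT in both classes. In periportal cells Fabp4 went to -0.08, Robo4 to -0.02 and Col4a1 to -0.03. The periportal interval of Stmn1 (0.31) then held 0, as did the pericentral interval of Apoa2 (0.01). Ctsl in DKO went to -0.01 in periportal cells. Under this scaling 4 named genes of TAZKO (2.34%) and 25 of all genes (0.359%) had opposite signs. Only 2 of these 4 and 6 of these 25 also had them without TMM, so most of the genes changed with the scaling.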

How the results depend on the processing

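Share of sinusoidal endothelial cells called pericentral, in percent. With at least 2 marker UMIs it was 28.6 in WT and 32.0 in TAZKO, and with at least 5 it was 21.6 in WT, 20.9 in TAZKO and 30.05 in DKO. In cells thinned to 2000 UMIs it was 16.2 in WT, 18.0 in YAPKO, 21.6 in TAZKO and 22.1 in DKO. The settings with a rule gene left out were chosen after seeing the data. Without Wnt2 the share was 19.5, 21.1, 17.8 and 28.3 in WT, YAPKO, TAZKO and DKO, and without Kit 13.3, 16.7, 16.9 and 22.7. Without Cdh13 it was 25.2 in TAZKO. Without Ntn4 it was 30.4 in YAPKO, 31.2 in TAZKO and 38.2 in DKO, without Ltbp4 29.6 in WT, 34.0 in YAPKO and 30.8 in TAZKO, and without Msr1 32.2, 37.5, 32.2 and 41.3. The other shares stayed within the 95% interval of the main value.

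Genes higher and lower in pericentral cells numbered 68 and 53 without the library block and 396 and 340 with DESeq2. Leaving out 1 library gave 464 to 822 higher and 412 to 605 lower genes, with the lowest counts without WT. Fewer sums enter these fits. Of 108 named genes called, 77 were called in every fit without a library and 84 by DESeq2. RLE factors changed no call of a named gene, and leaving out the low count filter lost 4 and added 15.

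Genes at least 2-fold from WT, higher and lower, numbered 108 and 246 in YAPKO, 385 and 170 in TAZKO and 164 and 210 in DKO with a minimum of 50 UMIs, which tests more genes, and 30 and 55, 54 and 54, and 41 and 62 with a minimum of 300. With TMM, TAZKO had 117 and 179. TMM moved 63 of 545 named ratios beyond their interval, and leaving out the top Scrublet scores moved 21. No gene past 2-fold changed sign, but Bmp2 in TAZKO turned from 0.067 to -0.08 log2 with TMM factors over the 4 pericentral sums, with intervals without 0, and to -0.10 with factors over the 8 sums of both classes. The causes of these changes were not tested.

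The test of pericentral against periportal cells was paired by library. Between genotypes, no paired analysis was possible because each mouse gave 1 library of 1 genotype and replicate 1 of a genotype is not matched to replicate 1 of another. Depth limits genes under 100 UMIs in 2 libraries, and a count of 0 allows up to 3 UMIs.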
